A study of Mus musculus with 12 samples.

Results

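The 42 genes described here make up the cytosolic heat shock and chaperonin network of mouse liver, and they were chosen by name: each row of the deposited table of 27912 genes whose symbol matched a listed gene was taken. All 42 genes were found with exactly 1 row each, and all 42 passed the filter on low counts. They were read in 8 classes: 8 HSP70 and HSP110 genes, 4 partners of HSP70, 8 genes of HSP90 and its cochaperones, 7 HSP40 genes, 3 small heat shock protein (HSP) genes, 3 mitochondrial chaperone genes, 7 subunits of the chaperonin TRiC and 2 heat shock factor (HSF) genes. The mitochondrial genes encode proteins of another compartment and served as the comparison within the network.

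The study compared livers of male C57BL/6 wild-type (WT) mice with livers of mice lacking CCR1, a receptor for inflammatory chemokines (CCR1-KO). The design text gives an age of 8 weeks at the start, worded for the WT mice, and 12 weeks of feeding for both genotypes. The diet of these groups was rich in fat and cholesterol and contained cholate (labelled CL). The WT group held replicates 62, 63 and 64, and the CCR1-KO group held replicates 65, 66 and 67. The labels name 6 further samples in 2 other groups of 3, which were not analysed here. The sources used here do not state how the knockout was made or whether controls were littermates, so genotype and genetic background cannot be told apart.

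Chaperones bind unfolded stretches of other proteins and help them to fold, refold or be degraded. HSP70 takes up clients delivered by HSP40 proteins and passes some of them to HSP90 through cochaperones that bridge both machines. HSP110 and the BAG proteins exchange the nucleotide of HSP70, small HSPs hold unfolded proteins without using ATP, and TRiC encloses actin, tubulin and other proteins in a ring chamber. Many of these genes are transcribed under heat shock factor 1, which binds repeated GAA units and their complement TTC.

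Because these motifs are short, they can be read directly in the sequence before and around the start of each gene. RefSeq promoter windows on GRCm38.p6, from 250 bases before to 50 bases after the start site, were matched for 35 of the 42 genes. Hspa8, St13, Hsp90aa1, Hsp90ab1, Hspa9, Cct4 and Hsf1 were not matched. Some genes had windows at several start sites, and a gene was counted if any of its windows held a motif. The motif of 2 units (GAANNTTC or TTCNNGAA, both strands) was present for 19 of the 35 genes, 54.3%. The share was 17.0% over all 27025 genes with RefSeq windows. The motif of 3 units (GAA, TTC and GAA, or TTC, GAA and TTC, with NN between units; these are reverse complements of each other, and each contains both motifs of 2 units) was present in 5 of 35, 14.3%, against 0.662% of the same genes. All 5 are shown, as 30 bases from 5′ to 3′ on the strand of the gene, with the GAA and TTC units of the motif in capitals:
Hsph1: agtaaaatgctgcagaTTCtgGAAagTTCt
Chordc1: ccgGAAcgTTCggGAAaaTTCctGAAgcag
Hspe1: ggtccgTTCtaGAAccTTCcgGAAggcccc
Hspd1: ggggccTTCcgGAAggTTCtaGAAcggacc
Dnajb6: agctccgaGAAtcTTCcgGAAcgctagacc

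The Hsph1 stretch lies at chr5:149636287-149636316 on the minus strand, 20 to 49 bases after the start site. The Chordc1 stretch lies at chr9:18292260-18292289 on the plus strand, spans the start site and has 5 consecutive units, the longest run of the 5. Hspe1 and Hspd1 are divergent neighbours, and their lines are the same 30 bases, chr1:55088053-55088082, read on the plus strand for Hspe1 and on the minus strand for Hspd1, so they count as 1 site. The Dnajb6 stretch lies at chr5:29735844-29735873 on the plus strand, 25 to 54 bases before the start site.

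A pair of units was present near Dnaja1, Fkbp4 and Hspb8, and these are shown because all 3 genes were higher in CCR1-KO livers:
Dnaja1: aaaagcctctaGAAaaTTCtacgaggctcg
Fkbp4: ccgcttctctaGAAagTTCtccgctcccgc
Hspb8: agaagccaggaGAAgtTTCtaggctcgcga

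The Dnaja1 stretch lies at chr4:40722333-40722362 on the plus strand, the Fkbp4 stretch at chr6:128438789-128438818 on the minus strand, and the Hspb8 stretch at chr5:116422844-116422873 on the minus strand. Of the 10 genes that were higher in CCR1-KO livers, 7 had a window; 5 of these 7 held a motif of at least 2 units, and neither Ahsa1 nor Stip1 did. Among the 28 genes with a window that did not pass the test, 14 held it. Of these, Hspd1, Dnajb4, Hspb6, Dnaja4 and Cct2 held it only at a later listed start site. A match describes the letters of the window and no factor was measured at these sites.

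The libraries held 74699391 to 79154085 reads assigned to genes. Counts were scaled to CPM, the usual unit of counts relative to library size, with TMM factors, which correct for a change in the makeup of a library, and CPM is used only to compare a gene between libraries. Levels of different genes are compared as deposited FPKM, which divides by gene length. Ccr1 itself had 100, 23 and 123 reads in the WT libraries and 11, 4 and 14 in the CCR1-KO libraries, a log2 fold change of -2.72 ± 0.76 (SE) that missed the threshold (adjusted p = 0.0755 by the quasi-likelihood test of edgeR, with the Benjamini-Hochberg method and n = 3 per group). The Mup genes, which encode major urinary proteins made in hepatocytes, took 0.927% to 1.05% of the reads in WT and 3.36%, 12.2% and 15.8% in CCR1-KO 65, 66 and 67, so CCR1-KO 65 stood apart from the other 2 knockouts. In bulk tissue, fewer cells of a type and less RNA per cell cannot be told apart.

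Part of the network was higher in CCR1-KO livers: the constitutive HSP70, an HSP110, both cytosolic HSP90 genes with 4 of their cochaperones, 1 HSP40 and 1 small HSP rose. Of the 42 genes, 10 rose and 0 fell at an adjusted p under 0.05, where 2.83% of the 17729 tested genes rose and 3.61% fell. At an unadjusted p under 0.05, 29 of the 42 were higher and 0 were lower, against 11.3% and 13.2% of all tested genes. DESeq2 called 21 of the 42 higher and 0 lower, against 6.48% and 8.21% of the genes it adjusted. The median log2 fold change of the 42 genes was 0.55, against 0.0017 for all tested genes, and 39 of the 42 values were above 0, against 50.1% of tested genes; scaled by library totals, 34 were above 0, against 24.3%. In CPM, every CCR1-KO library lay above every WT library for 26 genes, against 15.2% of tested genes, and below for 1 gene, against 17.4%. The 10 genes that rose were Hspa8, Hsph1, Hsp90aa1, Hsp90ab1, Chordc1, Ahsa1, Stip1, Fkbp4, Dnaja1 and Hspb8.

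**Figure D1:**
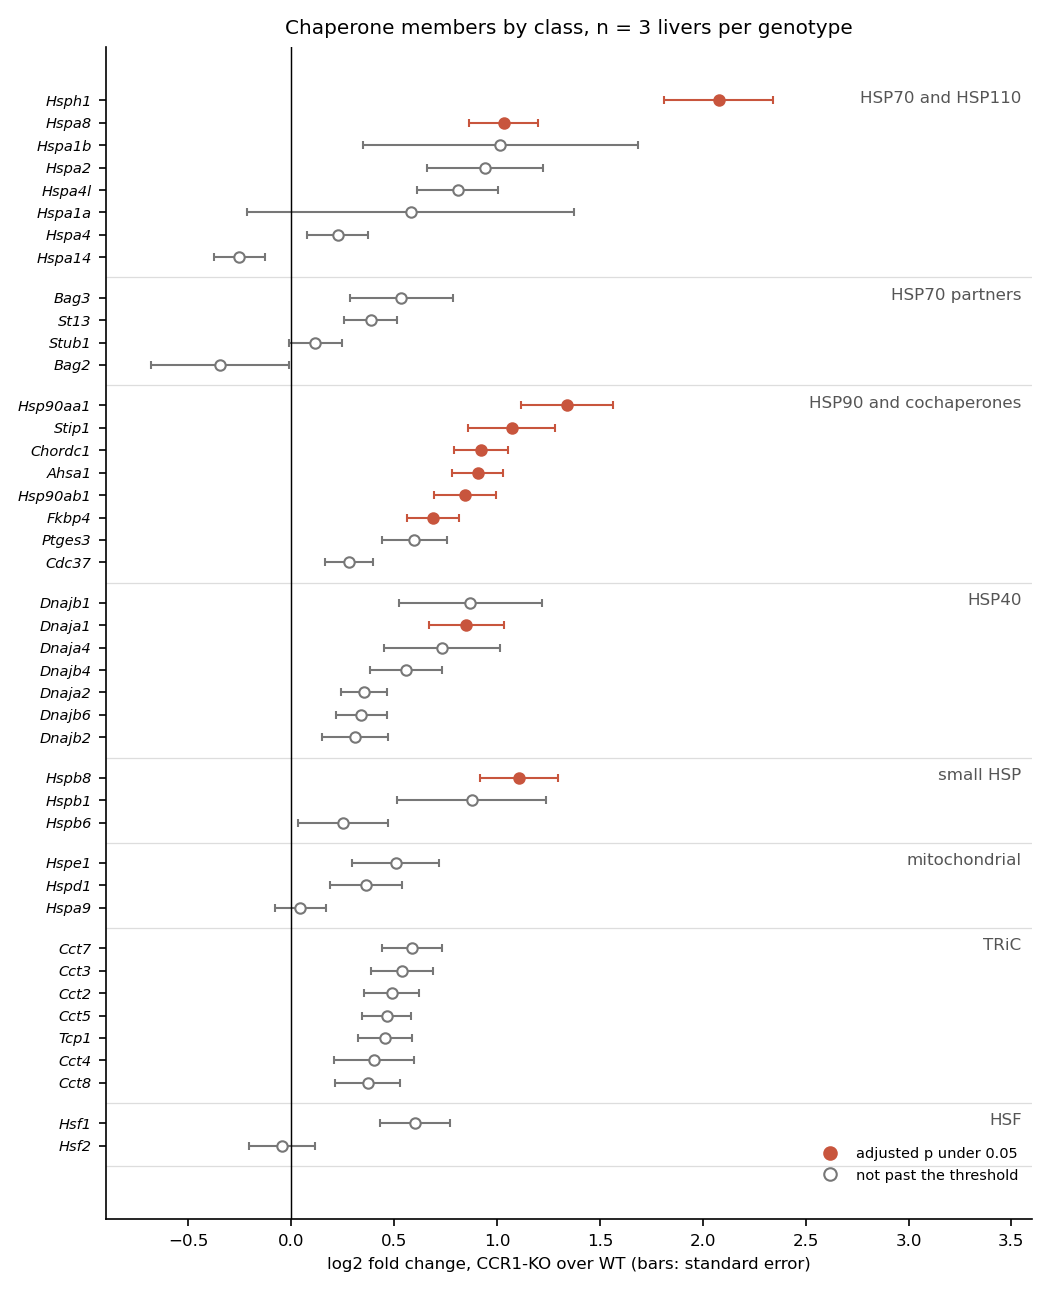
Log2 fold change (CCR1-KO minus WT) of each of the 42 genes with bars of 1 SE, grouped by class, with filled points for an adjusted p under 0.05. Hsph1 at 2.08 is the highest point, and the 7 TRiC points sit between 0.37 and 0.59.

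These counts depended on which libraries were in the fit. Without WT 62, 63 or 64, edgeR called 3, 0 and 5 of the 42 genes higher, against 0.447%, 0.197% and 0.312% of tested genes. Without CCR1-KO 65, 66 or 67, it called 17, 4 and 4 higher, against 5.50%, 0.796% and 0.947%. In the edgeR fit without WT 63, 23 of the 42 were still higher at an unadjusted p under 0.05, against 8.23% of tested genes, and 36 genes of the whole table were called higher. Scaling by library totals alone, which lowers the median log2 fold change of all genes to -0.30, left 4 genes called higher, against 1.24% of tested genes: Hspa8, Hsph1, Hsp90aa1 and Stip1. Under that scaling 219 genes of the table were called higher and 857 lower, against 501 and 640 with TMM. Limma on log2(FPKM + 0.5) called the same 4 genes, against 1.78% of tested genes, and no filter on low counts left 9 genes, against 1.12%. The count at an unadjusted p under 0.05 also depended on the scaling. With library totals 10 of the 42 were higher and 1 was lower, and with limma 9 of 41 tested were higher and 1 was lower. The shares of all tested genes at this cutoff were not counted for these settings.

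**Figure D2:**
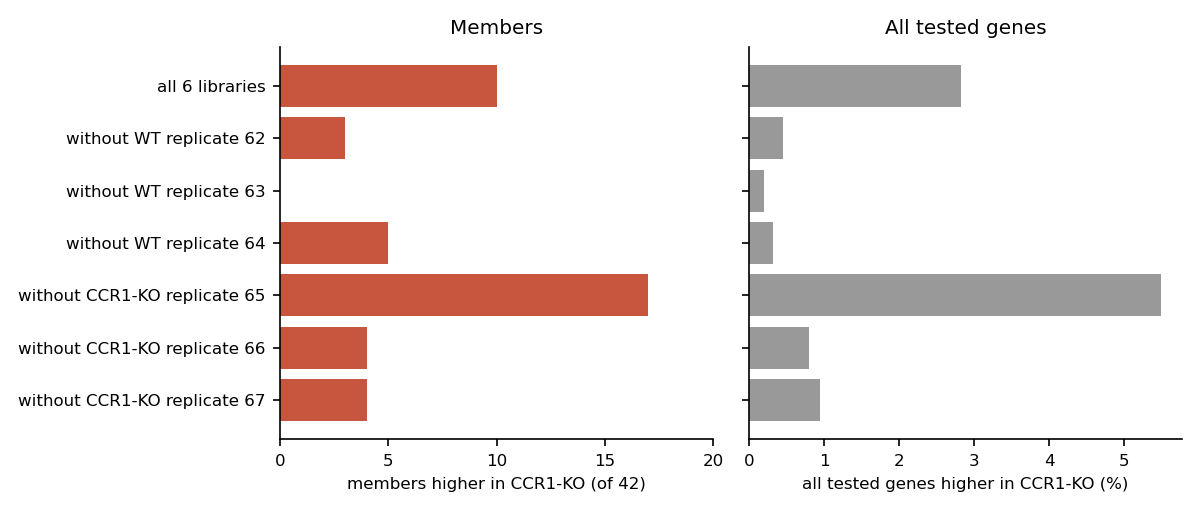
Genes called higher in CCR1-KO at an adjusted p under 0.05 with all 6 libraries and with 1 left out, as a number of the 42 genes (left) and as a percentage of all tested genes (right). Both are highest without CCR1-KO 65 (17 genes and 5.50%) and lowest without WT 63 (0 genes and 0.197%).

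In the HSP70 class the constitutive HSP70 and 1 HSP110 gene rose. Hspa8 (ENSMUSG00000015656, chr9:40800984-40810087, plus strand) encodes HSC70, the HSP70 that cells carry without stress. Its level was 960, 975.5 and 1122 CPM in the WT libraries and 1722, 2355 and 2181 CPM in the CCR1-KO libraries, with no overlap. Means were 1019 ± 89.8 (SD, n = 3) and 2086 ± 327 CPM (SD, n = 3), a log2 fold change of 1.03 ± 0.17 (adjusted p = 0.0177, edgeR). Per length it had a mean of 241.6 FPKM in WT and 395 FPKM in CCR1-KO, close to the 259.9 and 373.5 FPKM of Hsp90ab1. The order of these 2 genes, the most abundant of the 42, differed between libraries: Hspa8 was the higher in CCR1-KO 66 and Hsp90ab1 in the other libraries.

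Hsph1 (ENSMUSG00000029657, chr5:149614287-149636376, minus strand), an HSP110 that releases nucleotide from HSP70, showed the largest log2 fold change of the 42 genes. It stood at 32.9, 38.9 and 50.8 CPM in WT and at 118, 173 and 227 CPM in CCR1-KO. The groups did not overlap, and the means were 40.9 ± 9.10 and 172.5 ± 54.5 CPM (SD, n = 3 each). The log2 fold change was 2.08 ± 0.26, a 4.22-fold difference (adjusted p = 0.00984, edgeR), and it passed in 5 of the 6 fits that left out a library. The ratio of Hspa8 to Hsph1 FPKM was accordingly 49.2, 42.4 and 37.3 in WT and 24.7, 23.0 and 16.2 in CCR1-KO.

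The heat-inducible HSP70 genes did not pass. Hspa1a and Hspa1b are neighbours on chromosome 17 that encode nearly the same protein, and 38.1% of the stretches of 150 bases of the Hspa1a transcript also occur in Hspa1b, so reads could be split between them. Hspa1a stood at 7.70, 11.4 and 47.7 CPM in WT and at 8.53, 56.2 and 35.2 CPM in CCR1-KO. Hspa1b stood at 21.1, 24.4 and 77.9 CPM in WT and at 23.4, 111 and 116 CPM in CCR1-KO. In both genes WT 64 was far above the other WT libraries and CCR1-KO 65 was as low as WT 62 and 63. The log2 fold changes were 0.58 ± 0.79 (adjusted p = 0.702, edgeR) and 1.02 ± 0.67 (adjusted p = 0.39, edgeR). With both genes summed, a choice made after seeing the data, the value was 0.88 ± 0.70 (adjusted p = 0.484, edgeR). Their spread within groups, an SD of 1.36 for Hspa1a and 1.17 for Hspa1b on the log2 CPM scale, was the widest of the 42 genes, whose median was 0.21.

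The promoter windows of this pair matched at 296 of 300 bases, and the 120 bases from 160 to 41 bases before the start were identical. They are printed because the pair is the textbook heat shock promoter, with the units of the motif in capitals:
Hspa1a: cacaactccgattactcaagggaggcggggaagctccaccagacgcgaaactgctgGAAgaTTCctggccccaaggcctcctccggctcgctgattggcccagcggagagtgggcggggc
Hspa1b: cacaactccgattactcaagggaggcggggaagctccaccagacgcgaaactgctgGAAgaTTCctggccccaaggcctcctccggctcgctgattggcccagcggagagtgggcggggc

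They lie at chr17:34972197-34972316 for Hspa1a and chr17:34959279-34959398 for Hspa1b, both on the minus strand, and the motif ends 97 bases before the start of each.

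The other 4 genes of the class did not pass. Hspa4l, a further HSP110, had a log2 fold change of 0.81 ± 0.20 (adjusted p = 0.0531, edgeR), with 15.8 to 19.0 CPM in WT and 23.6 to 40.1 CPM in CCR1-KO. Hspa2, an HSP70 best known from the testis, was low, at 1.01 to 1.24 CPM in WT and 1.70 to 2.64 CPM in CCR1-KO (adjusted p = 0.0915, edgeR). In CPM neither gene's groups overlapped, and in deposited FPKM those of Hspa4l did. Hspa4 differed by 0.23 ± 0.15, and its sign turned to -0.10 with library totals. In CPM, Hspa14, a ribosome-associated HSP70, was the only one of the 42 genes with every CCR1-KO library below every WT library. In deposited FPKM this also held for Stub1 and Hspa9. Hspa14 stood at 12.9, 12.8 and 12.9 CPM in WT and at 9.92, 11.3 and 11.2 CPM in CCR1-KO (log2 fold change -0.25 ± 0.13, adjusted p = 0.259, edgeR). A protein-coding model overlaps it on the same strand.

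Of the 4 partners of HSP70, 0 passed in either direction by edgeR and by DESeq2. At an unadjusted p under 0.05, 1 was higher, against 11.3% of tested genes. That gene was St13, which encodes the HSP70 cochaperone HIP, with 134, 133 and 137 CPM in WT and 152, 181 and 195 CPM in CCR1-KO (log2 fold change 0.39 ± 0.13, adjusted p = 0.118, edgeR). Bag3, a nucleotide exchange factor that works with HSPB8 in selective autophagy, stood at 27.0, 27.0 and 37.7 CPM in WT and at 30.3, 43.2 and 59.4 CPM in CCR1-KO. Its groups overlapped, and the log2 fold change was 0.53 ± 0.25 (adjusted p = 0.235, edgeR). Stub1, the ubiquitin ligase CHIP and the most abundant of the 4 per length, stood at 46.4, 49.7 and 42.3 CPM in WT and at 43.2, 53.6 and 53.4 CPM in CCR1-KO. Its log2 fold change of 0.12 ± 0.13 turned to -0.20 with library totals. Bag2, an inhibitor of CHIP, had -0.34 ± 0.34 at 0.850 to 1.86 CPM.

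The HSP90 class had the most calls. In CPM, all 8 of its genes lay higher in every CCR1-KO library than in any WT library, against 15.2% of tested genes. In deposited FPKM, 5 of the 8 did, against 4.50%. By edgeR 6 of 8 rose, against 2.83%, and 8 of 8 were higher at an unadjusted p under 0.05, against 11.3%. The class median was 0.88 on the log2 scale. DESeq2 called 7 of the 8, against 6.48% of the genes it adjusted. With library totals alone only Hsp90aa1 and Stip1 were called.

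Hsp90aa1 (ENSMUSG00000021270, chr12:110690605-110702728, minus strand) encodes the stress-inducible cytosolic HSP90. It stood at 109, 124 and 186 CPM in WT and at 305, 341 and 416 CPM in CCR1-KO. Means were 139.8 ± 41.1 and 354 ± 56.5 CPM (SD, n = 3 each), and the log2 fold change was 1.34 ± 0.23 (adjusted p = 0.0190, edgeR). Hsp90ab1 (ENSMUSG00000023944, chr17:45567775-45573271, minus strand) encodes the constitutive cytosolic HSP90. It stood at 747, 718 and 830.2 CPM in WT and at 1213, 1347 and 1560.4 CPM in CCR1-KO, a log2 fold change of 0.84 ± 0.15 (adjusted p = 0.0226, edgeR). None of the stretches of 150 bases of the Hsp90aa1 transcript occurs in Hsp90ab1.

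Per length the constitutive form was the more abundant in every library. The ratio of Hsp90ab1 to Hsp90aa1 FPKM was 9.003, 7.58 and 5.84 in WT and 5.21, 5.17 and 4.92 in CCR1-KO. Every CCR1-KO ratio was therefore below every WT ratio, with means of 7.47 ± 1.58 and 5.10 ± 0.1598 (SD, n = 3 each). A ratio within a library does not depend on its scaling factor; the smallest p that an exact permutation test of 3 against 3 can give is 0.1.

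Chordc1 and Ahsa1 had the smallest adjusted p of the HSP90 class. Chordc1 (ENSMUSG00000001774, chr9:18292125-18317442, plus strand), which encodes a zinc-binding HSP90 partner, stood at 26.7, 32.5 and 34.4 CPM in WT and at 55.6, 60.8 and 61.0 CPM in CCR1-KO. Its log2 fold change was 0.92 ± 0.13 (adjusted p = 0.0125, edgeR). Ahsa1 (ENSMUSG00000021037, chr12:87266479-87273979, plus strand), the activator of the HSP90 ATPase, stood at 58.0, 65.7 and 71.7 CPM in WT and at 116, 130.2 and 120.4 CPM in CCR1-KO. Its log2 fold change was 0.91 ± 0.12 (adjusted p = 0.0121, edgeR). Each passed in 5 of the 6 fits that left out a library, as Hsph1 did; none of the other 39 genes passed in more than 2. For all 3 the fit that lost the call was the one without WT 63 (adjusted p = 0.0605 for Hsph1, 0.0657 for Chordc1 and 0.0664 for Ahsa1, edgeR).

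Stip1 and Fkbp4 both carry the repeats that dock on the tail of HSP90. Stip1 (ENSMUSG00000024966, chr19:7020702-7039967, minus strand) encodes HOP, which links HSP70 to HSP90, and stood at 61.1, 45.4 and 53.7 CPM in WT and at 88.3, 101 and 147 CPM in CCR1-KO. Its log2 fold change was 1.07 ± 0.21 (adjusted p = 0.0292, edgeR). Fkbp4 (ENSMUSG00000030357, chr6:128429735-128438677, minus strand) encodes FKBP52, an immunophilin of steroid receptor complexes. It stood at 118, 117 and 138 CPM in WT and at 202, 183 and 216 CPM in CCR1-KO, a log2 fold change of 0.69 ± 0.13 (adjusted p = 0.0252, edgeR). Stip1, Fkbp4, Hsp90ab1 and Dnaja1 each passed in only 1 of the 6 fits that left out a library, the fit without CCR1-KO 65.

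The 2 remaining genes of the class missed the threshold. Ptges3, which encodes the closed-state cochaperone p23, had 39.0 to 48.8 CPM in WT and 60.6 to 81.8 CPM in CCR1-KO (log2 fold change 0.60 ± 0.16, adjusted p = 0.0650, edgeR). Cdc37, which delivers kinases to HSP90, had 56.8 to 65.1 CPM in WT and 69.7 to 80.4 CPM in CCR1-KO (0.28 ± 0.12, adjusted p = 0.184, edgeR), and its value turned to -0.03 with library totals.

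**Figure D3:**
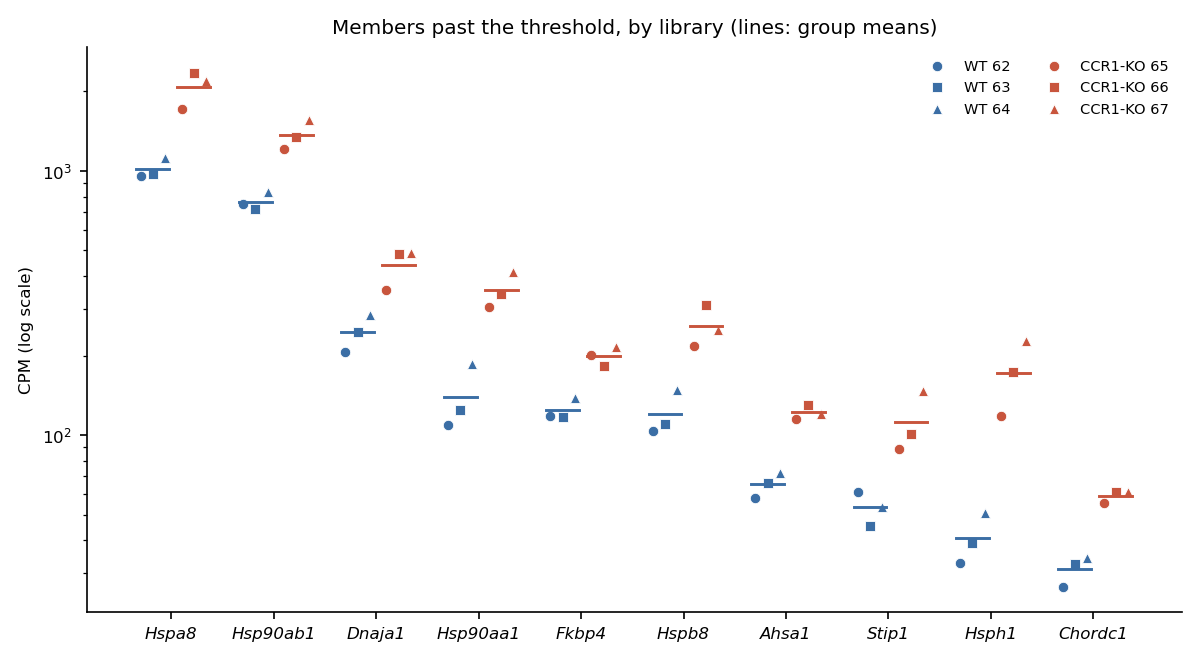
CPM on a log axis of the 10 genes with an adjusted p under 0.05, 1 point per library and a line at each group mean. In every gene the 3 CCR1-KO points lie above the 3 WT points, with the widest gap in Hsph1.

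Of the 7 HSP40 genes, which bring clients to HSP70 and stimulate its ATPase, 1 rose, against 2.83% of tested genes. At an unadjusted p under 0.05, 6 were higher, against 11.3%. The class median was 0.56 on the log2 scale, and all 7 values were above 0, against 50.1% of tested genes. Dnaja1 (ENSMUSG00000028410, chr4:40722150-40734964, plus strand), the most abundant of the 7 per length, stood at 206, 247 and 284 CPM in WT and at 353, 484 and 489 CPM in CCR1-KO. Its log2 fold change was 0.85 ± 0.18 (adjusted p = 0.0377, edgeR). This call was lost with no filter on low counts, with library totals and in the limma fits.

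Dnajb1, the heat-inducible partner of Hspa1a and Hspa1b, had a similar value of 0.87 ± 0.35 with a wider error (adjusted p = 0.176, edgeR). It stood at 17.9, 20.3 and 39.2 CPM in WT and at 30.1, 50.6 and 60.9 CPM in CCR1-KO, so WT 64 overlapped the knockouts. Dnajb4 stood at 31.8, 39.2 and 40.7 CPM in WT and at 46.1, 50.5 and 68.1 CPM in CCR1-KO, a log2 fold change of 0.56 ± 0.18 (adjusted p = 0.102, edgeR). Dnaja4 had 0.73 ± 0.28. Dnaja2, Dnajb6 and Dnajb2 had values of 0.31 to 0.35. In CPM the groups did not overlap for 4 of the 7 HSP40 genes (Dnaja1, Dnaja2, Dnajb4 and Dnajb6), against 15.2% of tested genes. In deposited FPKM this held for 1, Dnaja1, against 4.50%.

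Of the 3 small HSP genes 1 rose, against 2.83% of tested genes. Hspb8 (ENSMUSG00000041548, chr5:116408491-116422864, minus strand), the partner of BAG3 and the most abundant of the 3 per length, stood at 104, 110 and 148 CPM in WT and at 218, 310 and 251 CPM in CCR1-KO. Its log2 fold change was 1.11 ± 0.19 (adjusted p = 0.0201, edgeR), and it passed in 2 of the 6 fits that left out a library. Hspb1, which encodes HSP27 (HSP25 of the mouse), stood at 14.3, 12.8 and 30.5 CPM in WT and at 43.3, 23.3 and 39.3 CPM in CCR1-KO (0.88 ± 0.36, adjusted p = 0.186, edgeR), with WT 64 above CCR1-KO 66. Hspb6 had 0.25 ± 0.22 at 7.22 to 13.1 CPM. Its value turned to -0.04 with library totals.

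The window of Hspb1 holds 2 separate pairs of units between 117 and 90 bases before the start, at chr5:135887756-135887875 on the plus strand, and is shown beside the HSP70 pair as another heat-inducible gene that did not pass:
Hspb1: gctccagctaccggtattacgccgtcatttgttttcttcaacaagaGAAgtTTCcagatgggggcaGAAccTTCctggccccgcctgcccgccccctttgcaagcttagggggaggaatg

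**Figure D4:**
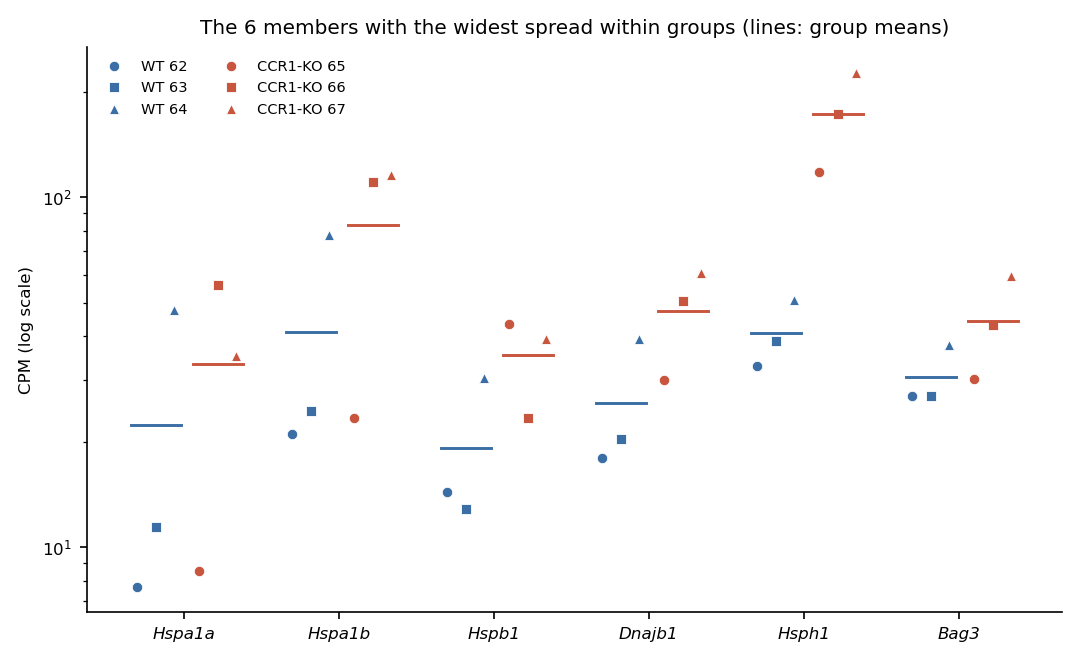
CPM on a log axis of the 6 genes with the widest spread within groups, 1 point per library and a line at each group mean. WT 64 is the highest WT library in all 6 genes, and of the 6 only Hsph1 has groups that do not overlap.

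Of the 3 mitochondrial chaperone genes 0 rose or fell by edgeR or by DESeq2. At an unadjusted p under 0.05, 1 was higher, against 11.3% of tested genes. Hspd1 (HSP60, the ring of the mitochondrial chaperonin) was the most abundant of the 3 per length, at a mean of 161 FPKM in WT and 164 FPKM in CCR1-KO. It stood at 368, 423 and 459 CPM in WT and at 427, 557 and 623 CPM in CCR1-KO, with overlap. The log2 fold change was 0.36 ± 0.17 (adjusted p = 0.245, edgeR). Hspe1 (HSP10, the lid of that chaperonin) had 62.004, 87.1 and 98.8 CPM in WT and 104.6, 146 and 102 CPM in CCR1-KO, a log2 fold change of 0.51 ± 0.21 (adjusted p = 0.189, edgeR). Hspa9, the mitochondrial HSP70 mortalin, had 0.04 ± 0.13 (adjusted p = 0.866, edgeR) and turned to -0.27 with library totals. Hspd1 and Hspe1 overlap head to head and have 5 and 6 named pseudogenes, so their counts are uncertain.

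Within a library, the mitochondrial genes made up 22.2%, 24.1% and 22.3% of the summed FPKM of the 42 genes in WT and 16.8%, 17.2% and 16.9% in CCR1-KO. This share was lower in each CCR1-KO library than in each WT library. The same held for TRiC, with mean shares of 11.6% in WT and 9.73% in CCR1-KO. It also held for the HSP40 class (6.50% and 5.91%) and the HSP70 partners (3.11% and 2.34%). The share of the HSP70 and HSP110 class was 20.4%, 19.7% and 21.6% in WT and 22.8%, 26.9% and 24.9% in CCR1-KO, again without overlap. The HSP90 class took 29.1% ± 1.27 (SD, n = 3) of the WT sum and 32.4% ± 2.26 (SD, n = 3) of the CCR1-KO sum, with overlap between the groups. Hspa8 and Hsp90ab1 together took 36.9%, 34.3% and 34.1% in WT and 40.5%, 40.6% and 41.2% in CCR1-KO. These shares sum to a whole, so a higher share of one class lowers the others.

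The TRiC subunits had small values of one sign. Of the 7 genes 0 passed by edgeR, and 6 were higher at an unadjusted p under 0.05, against 11.3% of tested genes. DESeq2 called 5, against 6.48% of the genes it adjusted. The log2 fold changes lay between 0.37 for Cct8 and 0.59 for Cct7, with a median of 0.46, and all 7 stayed above 0 in the 10 alternative settings and in the 6 fits that left out a library. With all 6 libraries and TMM factors, 50.1% of tested genes were above 0. Cct7 stood at 54.6, 66.6 and 72.7 CPM in WT and at 87.5, 107 and 96.6 CPM in CCR1-KO (0.59 ± 0.15, adjusted p = 0.0548, edgeR). Cct5 stood at 80.2, 90.4 and 95.4 CPM in WT and at 118, 130.01 and 119 CPM in CCR1-KO (0.46 ± 0.12, adjusted p = 0.0609, edgeR). Cct2, the most abundant subunit per length, stood at 78.8, 87.7 and 89.4 CPM in WT and at 109.8, 138 and 112 CPM in CCR1-KO (0.49 ± 0.13, adjusted p = 0.0700, edgeR). In CPM, every CCR1-KO library lay above every WT library for 6 of the 7, against 15.2% of tested genes. Groups overlapped only for Cct4, where WT 64 at 85.3 CPM was above CCR1-KO 67 at 84.8 CPM.

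Per length the subunits were not equal although the ring holds them in equal number. Mean FPKM over the 6 libraries was 36.2 for Cct2, 35.7 for Cct8, 34.6 for Cct5, 27.4 for Tcp1, 18.8 for Cct4, 11.8 for Cct3 and 10.7 for Cct7. The highest subunit stood 3.62 to 3.83 times above the lowest in WT and 3.06 to 3.41 times in CCR1-KO. As deposited FPKM, without the TMM factors, the groups overlapped for all 7 subunits, and the CCR1-KO libraries lay above the WT libraries for 10 of the 42 genes, against 4.50% of tested genes. These were not the same 10 as the called genes: the groups of Fkbp4 overlapped in FPKM, and Hspa2, which was not called, took its place. The CCR1-KO libraries lay below the WT libraries for 3 of the 42, and for 5008 of the 17729 tested genes.

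**Figure D5:**
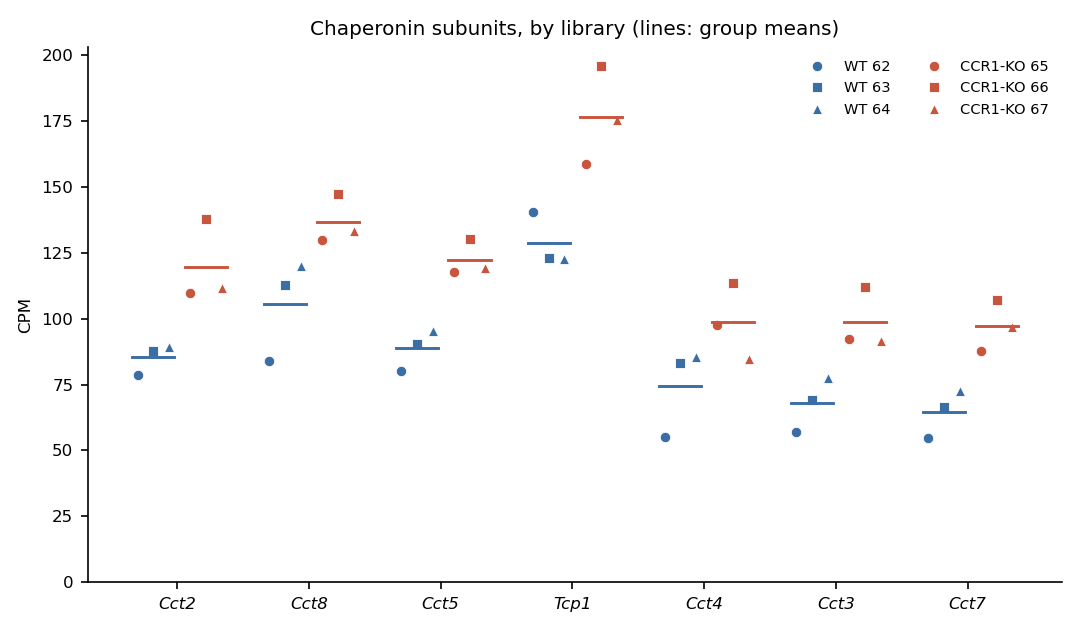
CPM of the 7 TRiC subunits, 1 point per library and a line at each group mean, in the order of their mean FPKM. The CCR1-KO points lie above the WT points in every subunit except Cct4, where 15.2% of all tested genes had such a gap. Heights are not comparable between subunits because CPM does not divide by length.

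Of the heat shock factors, Hsf1, the main activator of this program, was a low transcript of 1.67 FPKM in WT and 2.06 FPKM in CCR1-KO. It stood at 13.7, 11.6 and 10.2 CPM in WT and at 16.0, 21.2 and 16.5 CPM in CCR1-KO, without overlap in CPM (log2 fold change 0.60 ± 0.17, adjusted p = 0.0775, edgeR). In deposited FPKM the Hsf1 groups overlapped. Hsf2 stood at 22.2, 24.8 and 22.7 CPM in WT and at 27.1, 18.0 and 22.4 CPM in CCR1-KO, with overlap (-0.05 ± 0.16, adjusted p = 0.889, edgeR). Both factors are regulated largely on the protein, which was not measured here.

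In CPM scaled with TMM factors, many of the 42 genes shared an order of libraries. The order over all tested genes was not counted, so it is not known whether this is particular to the 42. Within the WT group, WT 64 was the highest library for 31 of the 42 genes and WT 62 the lowest for 28. Within the CCR1-KO group, CCR1-KO 65 was the lowest for 33, and CCR1-KO 67 and 66 were the highest for 21 and 18. The 42 genes together took 0.486%, 0.546% and 0.651% of the reads of WT 62, 63 and 64, and 0.754%, 0.771% and 0.698% of the reads of CCR1-KO 65, 66 and 67. By this share, which uses no TMM factors, CCR1-KO 65 was above CCR1-KO 67.

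Chaperone genes outside the 42 were read from lists of the same pathways. Of 104 other tested genes in lists of HSP70, HSP40, HSP90, small HSP, mitochondrial, chaperonin, HSF and heat-responsive genes, 6 rose and 2 fell, where 2.83% of all tested genes rose and 3.61% fell, with a median log2 fold change of 0.02. Partners of HSP90 had 4 of the 6: Fkbp5, Ppid, Cacybp and Cdc37l1 of 21 tested. Fkbp5, an immunophilin that glucocorticoids induce, stood at 21.9, 34.1 and 16.8 CPM in WT and at 66.3, 262 and 125 CPM in CCR1-KO (2.64 ± 0.50, adjusted p = 0.0261, edgeR). Ppid, the immunophilin cyclophilin 40, had 0.66 ± 0.11 (adjusted p = 0.0191, edgeR).

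Of 33 other HSP40 genes 2 rose and 2 fell, beside the same 2.83% and 3.61% of all tested genes. Dnajb11 (0.96 ± 0.17) and Dnajc3 (0.65 ± 0.15) rose, and Dnajc28 (-0.59 ± 0.13) and Dnajc27 (-1.53 ± 0.34) fell. Of 5 other HSP70 genes 0 passed, with Hyou1 at 1.13 ± 0.28 (adjusted p = 0.0529, edgeR) and Hspa5, the BiP of the endoplasmic reticulum, at 0.86 ± 0.29 (adjusted p = 0.1203, edgeR). In the other lists 0 genes passed: 8 HSP70 partners (median 0.15), 2 small HSPs (-0.19), 8 mitochondrial proteostasis genes (-0.06), 12 chaperonin partners (0.0025), 5 HSF partners (-0.26) and 10 other heat-responsive genes (0.19). Cct6a, a TRiC subunit that is not among the 42, had 0.41 ± 0.13 (adjusted p = 0.0966, edgeR). Its groups did not overlap in CPM and overlapped in deposited FPKM.

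Markers of other cell types and states were measured beside these results, where 2.83% of all tested genes rose and 3.61% fell. Of 8 hepatic stellate markers 4 fell (Col1a1, Col3a1, Dcn and Lrat), with a summed level of 350.2 to 749 CPM in WT and 174 to 203 CPM in CCR1-KO. Of 6 cholangiocyte markers 1 fell, Spp1, with summed levels of 118 to 190.03 CPM and 42.2 to 49.1 CPM. Of 7 hepatocyte markers 2 rose, Serpina1a and Cps1, while the summed levels overlapped at 72152 to 86785 CPM and 70450 to 88327 CPM. Of 8 macrophage, 6 endothelial, 6 T and NK cell, 4 B cell, 3 neutrophil and 4 erythroid markers 0 passed, and 0 of 4 skeletal muscle markers had enough reads to be tested (at most 0.653 CPM summed). No listed marker was at 0 in all libraries.

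Among 15 clock genes 1 rose, where 2.83% of all tested genes rose. That gene was Per1, a clock gene that glucocorticoids also induce. It stood at 14.3, 12.1 and 11.3 CPM in WT and at 42.6, 55.8 and 48.3 CPM in CCR1-KO (1.96 ± 0.15, adjusted p = 0.00217, edgeR). The clock genes summed to 472 to 529 CPM in WT and 500.5 to 829 CPM in CCR1-KO. The cold-inducible genes Cirbp and Rbm3, whose transcripts fall when body temperature is high, did not pass (-0.47 ± 0.14, adjusted p = 0.0914, and -0.43 ± 0.15, adjusted p = 0.132, edgeR), with summed levels of 58.2 to 67.4 CPM in WT and 41.5 to 50.4 CPM in CCR1-KO. Of 8 immediate early genes 0 passed, with summed levels of 303 to 899 CPM and 847 to 1157 CPM. The part of these cell types, of time of day, of body temperature or of handling in the chaperone values was not tested.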

How the data were processed

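Liver polyadenylated RNA was sequenced as pairs of 150 bases with dUTP marking, per the labels' protocols. The submitters' processing notes name StringTie 2.1.6, HISAT2 2.2.1, cutadapt 1.9, edgeR and DESeq2 without roles, and the human build GRCh38. Mouse identifiers fill the table, however: GENCODE M21 (GRCm38) holds 27839 of them, 25059 (90.0%) at the same start, end and strand, including 34 of the 42 genes. Coordinates are therefore given as GRCm38. Per the file headers, the deposited table gives raw counts and FPKM values for each gene and library; the authors' strand setting and handling of reads that match several genes are not given in the sources used here. Of the 42 genes, 11 overlap another protein-coding model, and 0 of the 10 called genes do.

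The counts were tested with edgeR 4.0.16 (R 4.3.3; TMM, filterByExpr with minimum count 10 and minimum total 15, glmQLFit and glmQLFTest), CCR1-KO against WT with 3 libraries each, adjusted (Benjamini-Hochberg) over 17729 genes at a threshold of 0.05. The SE was obtained by dividing the size of the log2 fold change by the root of the F statistic. The WT libraries had TMM factors of 1.06, 1.12 and 1.17, and the CCR1-KO libraries had 1.06, 0.874 and 0.779. Alternatives were DESeq2 1.42.0, limma 3.58.1 on log2(FPKM + 0.5), other scalings, no filter, and 1 library left out. Replicates are separate samples by their labels, and p-values measure only the spread between these samples, which may be partly technical. Each pair of replicates differed by more than sampling noise (chi-square per degree of freedom at least 62.8).

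The 42 genes, the other lists and the tests were chosen with earlier results of these data known, so no list was tested as a set. The rule gave values by library for the 10 genes past the threshold and for the 2 genes of smallest p and the most abundant gene of each class. In each other list it allowed up to 4 genes of smallest p; the genes that passed and a few others are named, and the rest are given by counts and medians. Hspa1a, Hspa1b, Dnajb1, Hspb1 and Hspa14 were added after their values were seen. The count test was also run on simulated counts with the spread estimated from these libraries, which does not check the calls made here. Promoter windows are from RefSeq (GRCm38.p6). The symbol column was matched exactly, and 55 symbols of the table belong to more than 1 gene, none of them among the 42.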

Additional observations from a re-analysis of the deposited data

How the results depend on the processing

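DESeq2 called 1035 genes of the table higher and 1312 lower; library totals alone called 219 higher, no filter 314 higher and 421 lower, and limma on log2 of FPKM plus 0.5, 0.1 or 1 called 223, 217 and 225 higher and 1088, 969 and 1124 lower. Leaving out 1 library gave 36 to 1010 higher and 66 to 1409 lower. Of the 42 genes, DESeq2 called 21 higher (4 HSP70, 3 HSP40, 5 TRiC and 1 HSF) and library totals and each limma fit called 4, with 2 HSP90, 0 HSP40 and 0 small HSP genes; no filter left 0 HSP40 genes. Leaving out 1 library gave 0 to 17 of the 42, with 0 to 2 HSP70, 0 to 1 HSP70 partners, 0 to 7 HSP90, 0 to 2 HSP40, 0 to 1 small HSP and 0 to 4 TRiC genes. The median log2 fold change of all genes was -0.30 with library totals and -0.23 with limma at 0.5. Signs reversed with library totals and in the limma fits (0.5, 0.1 and 1) for Hspa4 (-0.10, then -0.0859, -0.0875 and -0.0839), Stub1 (-0.20, then -0.19, -0.20 and -0.19), Cdc37 (-0.0272, then -0.0277, -0.0291 and -0.0260), Hspb6 (-0.0390, then -0.0226, -0.0232 and -0.0216) and Hspa9 (-0.27, then -0.27, -0.27 and -0.27). Hspa9 also reversed with upper-quartile scaling (-0.00847) and without CCR1-KO 67 (-0.00793 to 0.11 over the 6 libraries left out), Hspa1a without CCR1-KO 66 (-0.0274 to 1.80), and Hsf2 without WT 63 (0.0027) and CCR1-KO 66 (-0.21 to 0.0911); none of these values passed a test. Of 416 values of the 42 genes under other settings 359 kept their sign and side of the threshold, 25 lost and 11 gained a call, and 21 reversed. Of 252 values with 1 library left out, the numbers were 205, 35, 8 and 4. Only the 10 genes called by edgeR with all 6 libraries could lose a call, so all 25 and 35 lost calls were theirs. The kept values include those of the 32 genes that were not called. The 3 limma fits lost the same calls and are counted separately, so these tallies do not measure how stable the calls were. The causes were not tested. No paired analysis was possible because the groups share no replicate numbers. Summing Hspa1a and Hspa1b was chosen after seeing the data and left 10 genes called.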
